A study of Mus musculus with 6 samples.

Results

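Mouse epidermis lacking the transcription factors Sox4, Sox11 or both was examined for the genes that run the cell cycle. The set held 45 genes of mitosis, DNA replication and cell cycle control, of 21370 genes that could be named on the array. The genes were listed by name, and each was read by the brightest of its probes. All 45 genes had a probe. RNA came from peeled dorsal epidermis of E16 embryos, labelled as the mixed strain 129SvEx:C57BL/6, which is that of the floxed stock, while the Krt14-Cre line was FVB/N. Knockout embryos carried a conditional deletion of Sox4 (Sox4 cKO), of Sox11 (Sox11 cKO) or of both genes (dcKO), driven by Cre recombinase under the keratin 14 promoter, which is active in keratinocytes and not in the dermal, vascular or immune cells of the skin. The deletion therefore concerned the keratinocytes of the sample. Each of 6 two-colour Agilent arrays carried the knockout sample beside a sample of wild-type littermates labelled in the opposite colour, with 2 arrays per genotype. The knockout was labelled with Cy5 on replicate 1 and with Cy3 on replicate 2. The floxed stock was described as also lacking Sox12, and neither the Sox12 status of the embryos nor the floxed alleles of the littermates were stated in the sources used here.

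Values are log2(knockout/wild type) of 1 probe on 1 array, so that 0 means equal signal and −1 means a signal 2-fold lower in the knockout. All arrays lay on 1 slide, 38.9% to 43.6% of spots per channel were well above background, and no spot was saturated. Sox4 gave −0.14 and −0.71 on the Sox4 cKO arrays and −0.96 and −0.69 on the dcKO arrays (dcKO adjusted p = 0.0768). Sox11 gave 0.26 and −0.17 on the Sox11 cKO arrays and −0.96 and −0.48 on the dcKO arrays (dcKO adjusted p = 0.196). The Sox11 probe was well above background on 1 knockout and 3 wild-type channels of 6 each, and where the probes of either gene lie relative to the deleted part is not given in the sources used here, so these values do not settle the Sox11 cKO label. The Sox4 value of Sox4 cKO replicate 1 was likewise close to wild type, so the deletion was not shown by that array either. The fitted Sox4 cKO value was −0.42 (limma, adjusted p = 0.802). Each of these genes had 2 probes, of which 1 is given here. The study states that RT-qPCR verified loss of the targeted genes in these RNAs before the arrays were run. The basal keratinocyte markers were well above background in every channel (9 of 9 genes), as were the suprabasal ones (10 of 10). The 2 replicates are labelled biological, the number of embryos in a sample is not given in the sources used here, and with so few arrays the intervals below were wide.

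Most dividing cells of the epidermis lie in its basal layer, and cells that move up into the suprabasal layers leave the cell cycle. In the first gap phase, D-type cyclins and cyclin E activate kinases that free E2F factors to switch on replication genes. Cdc6 and Cdt1 then load the Mcm2 to Mcm7 helicase onto DNA (licensing), and Pcna, ribonucleotide reductase and thymidylate synthase serve DNA synthesis. Cyclin B with Cdk1, together with Foxm1 and the motor, kinase and checkpoint proteins it controls, drives mitosis, and the CDK inhibitors Cdkn1a (p21), Cdkn1b (p27) and Cdkn1c (p57) hold kinases back. In a bulk sample, fewer dividing cells and less of these RNAs per dividing cell cannot be told apart. By staining of skin sections, the study reported similar BrdU incorporation (a label of DNA synthesis) in dcKO and wild-type epidermis.

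The promoters of these genes shared short sequences that the choice of genes had not used. RefSeq promoters (build GRCm38.p6, 250 bases before to 50 after each start) were given for 34 of the 45 genes, in 36 promoters. A CCAAT box lay in 72.22% of these promoters against 37.41% of all 32851. The element TTTGAA, the core of the cell cycle homology region, lay in 38.89% against 17.89%, and an E2F-type element (TTTGGCGC, TTTCCCGC or TTTCGCGC) in 19.44% against 1.84%. All 3 were counted on either strand, and E2F-type letters may overlap each other. The elements were not spread evenly over the roles. Of the mitosis genes with a promoter, 11 of 15 held TTTGAA and 0 of 15 an E2F-type element, whereas 6 of 7 licensing genes held an E2F-type element and 1 of 7 held TTTGAA. Of the cyclin and Cdk1 promoters 2 of 4 held TTTGAA and 1 of 4 an E2F-type element, and of those for DNA synthesis and nucleotide supply 0 of 5 held either. The 170 bases before the start are shown for a mitosis gene, for the mitotic kinase and for a licensing gene, 5′ to 3′ along the gene, because they carry these arrangements. Capitals mark CCAAT (or ATTGG on the other strand), TTTGAA and the E2F-type elements.
Cdc20, chr4:118437344-118437513, minus strand: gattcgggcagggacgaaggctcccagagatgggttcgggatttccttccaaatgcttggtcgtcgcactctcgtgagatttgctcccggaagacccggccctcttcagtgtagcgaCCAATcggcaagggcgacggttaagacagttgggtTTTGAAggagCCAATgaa
Cdk1, chr10:69352913-69353082, minus strand: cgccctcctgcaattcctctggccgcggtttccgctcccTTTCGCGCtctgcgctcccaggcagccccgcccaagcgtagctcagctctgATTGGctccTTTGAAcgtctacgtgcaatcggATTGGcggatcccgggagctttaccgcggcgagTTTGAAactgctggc
Mcm6, chr1:128359706-128359875, minus strand: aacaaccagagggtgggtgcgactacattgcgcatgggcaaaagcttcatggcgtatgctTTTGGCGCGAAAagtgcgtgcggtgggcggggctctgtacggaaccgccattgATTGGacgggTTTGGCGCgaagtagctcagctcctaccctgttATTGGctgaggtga
The Cdc20 promoter had TTTGAA between a pair of CCAAT boxes close to the start. The Cdk1 promoter had all 3 kinds of element, and the Mcm6 promoter had E2F-type elements and ATTGG without TTTGAA. The RNA of these genes is given with their groups below. No promoter was given for 11 genes, among them Cdkn1c, Ccnd1 and Ccnd2. A match describes the letters only and says nothing of binding by a factor.

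Across the 45 genes, differences from wild type were small in all 3 genotypes. In the Sox4 cKO, 0 of 45 genes had an adjusted p under 0.05 (limma, all 55681 probes), where 0.00539% of all probes did. In the Sox11 cKO it was 0 of 45, against 0% of all probes. In the dcKO it was 1 of 45, Cdkn1c, against 0.833% of all probes. The median fitted value of the 45 genes was −0.05 in the Sox4 cKO, −0.14 in the Sox11 cKO and −0.15 in the dcKO, while the median over genes well above background was 0.00, 0.00 and −0.01. By array, the members' median was −0.10 and −0.06 in the Sox4 cKO, −0.01 and −0.22 in the Sox11 cKO, and −0.19 and −0.11 in the dcKO. The Sox11 cKO median rested on replicate 2, without which it was −0.01. All 6 array medians were below 0. The arrays of the Sox11 cKO differed by more than the genotype's median, and those of the Sox4 cKO and dcKO by less.

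Suprabasal keratinocyte markers (10 genes, all well above background in every channel) were high on the array with the lowest members' median. Their median was 0.19 and 1.15 on the Sox11 cKO arrays, 0.55 and 0.57 on the dcKO arrays, and 0.14 and −0.02 on the Sox4 cKO arrays. In the Sox11 cKO and in the dcKO, 10 of 10 genes were higher on both arrays, and in the Sox4 cKO 2 were, with no gene of the list at an adjusted p under 0.05 in any of the 3. The summed signal of the list was 18.47 to 18.63 (log2) in the dcKO against 17.99 to 18.08 in its wild type, 18.00 to 18.31 in the Sox11 cKO against 17.19 to 17.85, and 18.15 to 18.46 in the Sox4 cKO against 18.18 to 18.32. Their part in the members' values was not tested.

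More of the genes lay below 0 than above. In the dcKO, 29 of 45 genes were lower on both arrays, 2 were higher on both and 14 differed in sign, and 25.2% of all probes and 32.3% of genes well above background were lower on both. In the Sox11 cKO, 22 genes were lower on both arrays against 22.8% of all probes and 21.8% of genes well above background, and in the Sox4 cKO 18 were, against 22.9% and 22.2%. At an unadjusted p under 0.05, 2 genes were lower in the Sox4 cKO (background 3.4% of probes and 3.36% of genes well above background), 1 in the Sox11 cKO (3.31% and 2.05%) and 6 in the dcKO (4.95% and 8.44%). No gene was higher at that threshold in any of the 3 genotypes, where 2.78%, 3.74% and 4.95% of all probes and 1.86%, 4.36% and 7.8% of genes well above background were, in the order Sox4 cKO, Sox11 cKO and dcKO. The rule of the study's methods, which also asks for an absolute log2 value over 1.5, was applied to this fit. It called no gene of the set, and 0.00539%, 0% and 0.207% of all probes in the Sox4 cKO, Sox11 cKO and dcKO. The study made its own calls after ComBat, so these counts are not the study's. A figure legend of the study gives the threshold as a fold change over 1.5, without log2. Cdkn1c passed that threshold in the dcKO (2.55-fold). Set against the genes well above background in the dcKO, 37 of 45 genes lay below their median, 3 below their 5% quantile (−0.42) and 0 above their 95% quantile (0.43). By the same measures within each genotype, the counts were 39, 4 and 0 in the Sox11 cKO and 32, 4 and 0 in the Sox4 cKO.

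The intervals bound how far the genes could have moved. In the Sox4 cKO the 95% interval of 40 genes lay within 1.5-fold of wild type and that of 44 within 2-fold. In the Sox11 cKO these were 41 and 45 genes, and in the dcKO 38 and 43, where the exceptions at 2-fold were Ccnd1 and Cdkn1c. The half-width of the interval was typically 0.31 on the log2 scale, so a shift of the size of the members' medians could not be resolved for a single gene. Aurkb, Cenpf and Ccne2 were not well above background in any channel, and Cdk1, Cdc6 and Tyms only in some, so their values are uncertain.

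**Figure D1:**
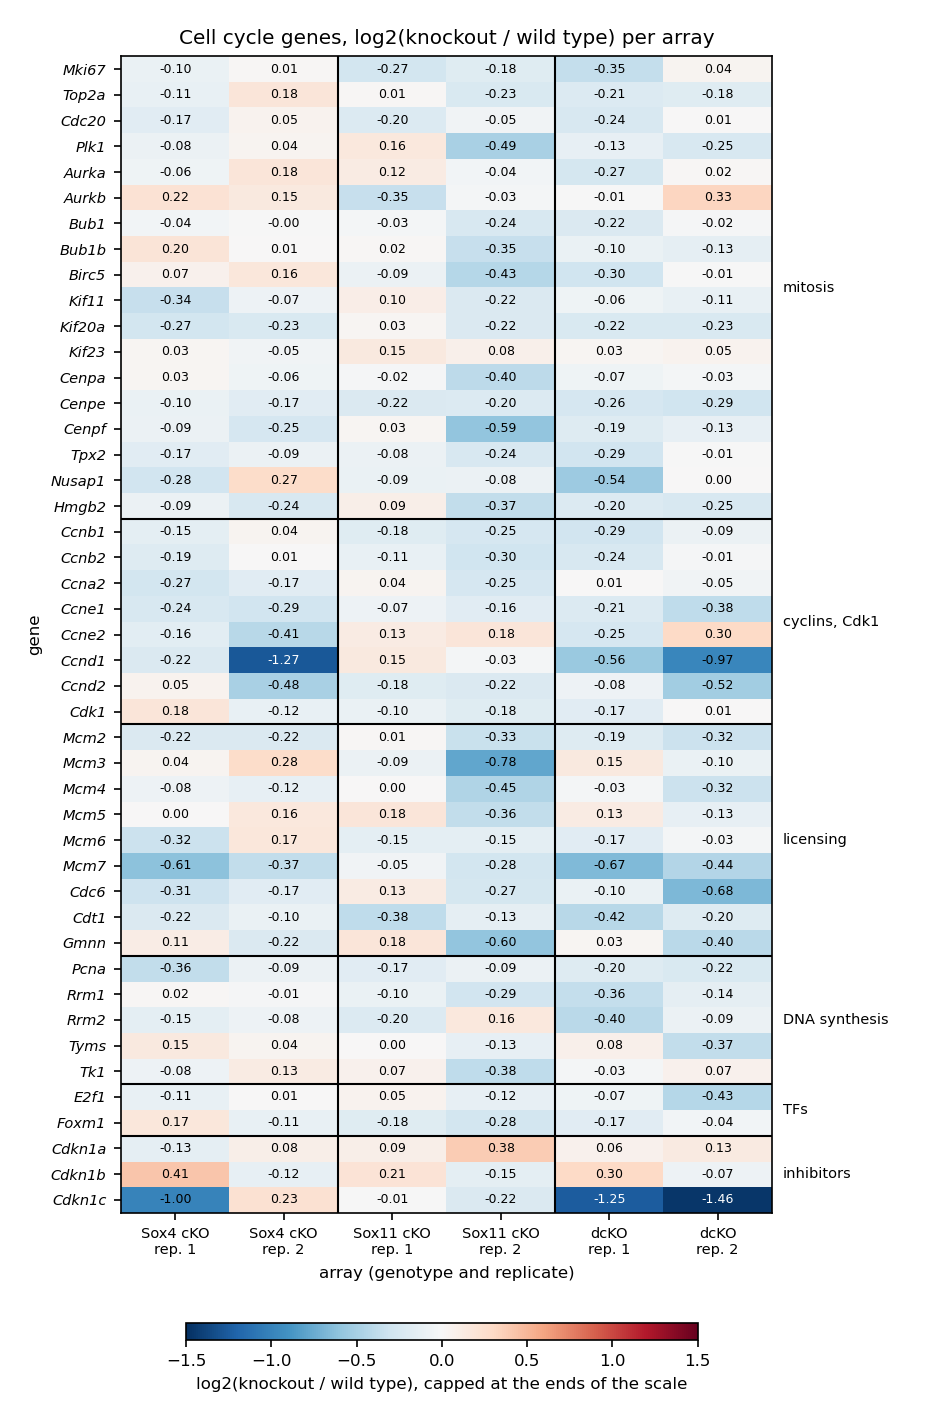
Log2(knockout/wild type) of the 45 cell cycle genes (rows, grouped by role) on the 6 arrays (columns, 2 per genotype). Most cells are pale, with values near 0, and the darkest are Cdkn1c on both dcKO arrays (−1.25 and −1.46) and Ccnd1 on Sox4 cKO replicate 2 (−1.27).

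**Figure D2:**
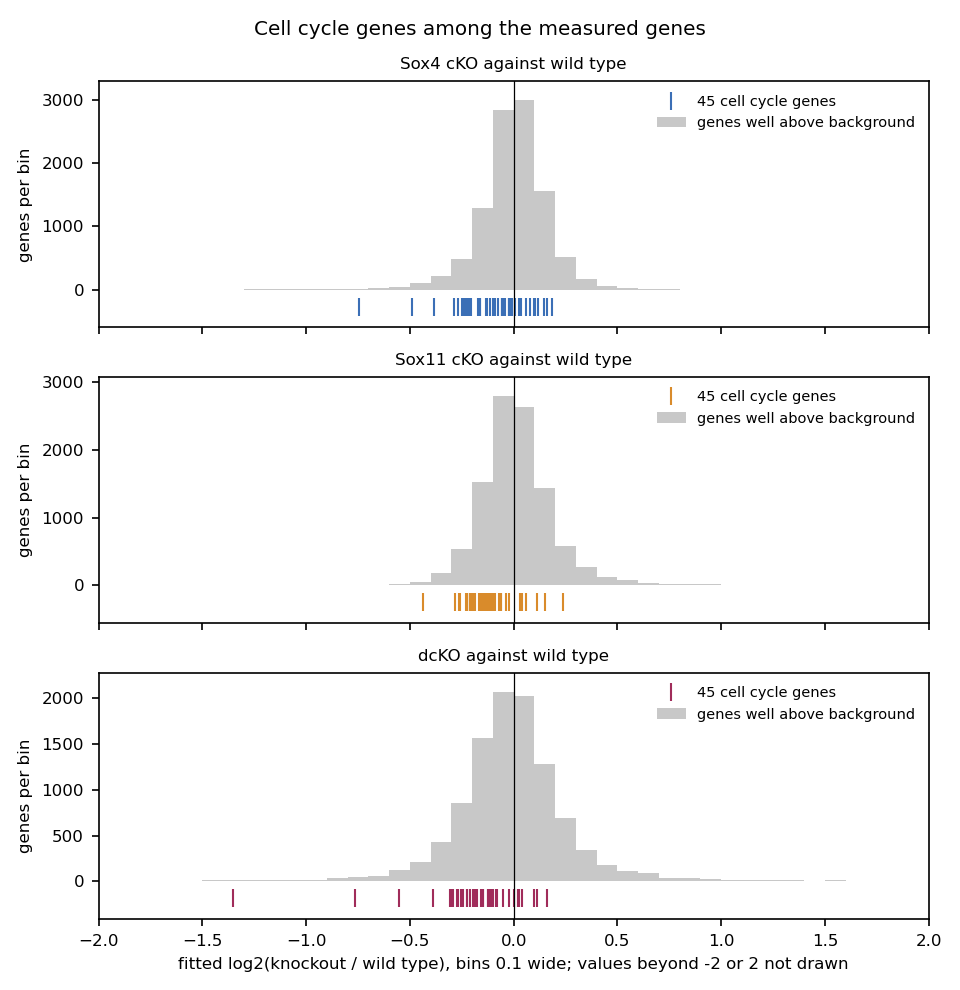
Fitted log2(knockout/wild type) on the x axis for genes well above background (grey bars, genes per bin on the y axis) and for the 45 cell cycle genes (coloured ticks below), with 1 panel per genotype. The ticks lie within the body of the grey distribution, a little below 0, except for single genes such as Cdkn1c in the dcKO (−1.35).

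Mitosis genes showed no call in any genotype (0 of 18 each). Their median was −0.02 in the Sox4 cKO, −0.15 in the Sox11 cKO and −0.15 in the dcKO. Mki67, the proliferation marker that coats mitotic chromosomes, gave −0.10 and 0.01 on the Sox4 cKO arrays, −0.27 and −0.18 on the Sox11 cKO arrays, and −0.35 and 0.04 on the dcKO arrays. It was lower on both arrays in the Sox11 cKO only, by less than the fit could resolve (adjusted p = 0.774). A second Mki67 probe gave −0.04, −0.24 and −0.13 as fitted values, close to −0.04, −0.22 and −0.15 for the first. Top2a, the topoisomerase that untangles chromosomes, gave −0.11 and 0.18, 0.01 and −0.23, and −0.21 and −0.18 in the same order. Cdc20, the activator of the anaphase complex whose promoter is shown above, had fitted values of −0.06, −0.13 and −0.11.

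The ends of the mitosis group in the dcKO were Cenpe and Aurkb. Cenpe, a kinetochore motor, gave −0.26 and −0.29 on the dcKO arrays, −0.22 and −0.20 on the Sox11 cKO arrays, and −0.10 and −0.17 on the Sox4 cKO arrays. It was low on all 6 arrays and close between replicates, but its adjusted p in the dcKO was 0.524. Aurkb, a kinase of the chromosomal passenger complex, gave −0.01 and 0.33 in the dcKO, 0.22 and 0.15 in the Sox4 cKO, and −0.35 and −0.03 in the Sox11 cKO, all from a signal not well above background. In the Sox11 cKO, Cenpf, a kinetochore protein that was also not well above background, gave 0.03 and −0.59, and Birc5 (survivin) gave −0.09 and −0.43. Kif23, a motor of cytokinesis, gave 0.15 and 0.08 there. Neither Cenpf nor Birc5 was alike on both arrays, and their adjusted p was 0.744 and 0.76. The 3 Birc5 probes disagreed in the dcKO, with fitted values of −0.15, 0.03 and 0.13.

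Among the cyclins and Cdk1, cyclin D1 stood lowest. Ccnd1, the cyclin that opens the first gap phase, gave −0.22 and −1.27 on the Sox4 cKO arrays, 0.15 and −0.03 on the Sox11 cKO arrays, and −0.56 and −0.97 on the dcKO arrays. It was thus lower on all 4 arrays labelled Sox4 cKO or dcKO and near 0 on both Sox11 cKO arrays. In every genotype the lower Ccnd1 value was that of replicate 2, where the knockout was in Cy3. The fitted values were −0.74 (SE 0.165, adjusted p = 0.723) in the Sox4 cKO and −0.77 (SE 0.165, adjusted p = 0.105) in the dcKO, neither of which passed the threshold. In the dcKO, leaving out either Sox4 cKO replicate 1 or Sox4 cKO replicate 2 brought the adjusted p of Ccnd1 to 0.0416, the value of Ccnd1 itself being the same. Ccnd2, its close relative, gave 0.05 and −0.48, −0.18 and −0.22, and −0.08 and −0.52 in the same order of genotypes. Its lower values were on replicate 2, where the knockout was in Cy3.

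Ccnb1, the mitotic cyclin B, gave −0.15 and 0.04 in the Sox4 cKO, −0.18 and −0.25 in the Sox11 cKO, and −0.29 and −0.09 in the dcKO. Of 3 Ccnb1 probes, the fitted dcKO values were −0.19, −0.01 and 0.23, so that its sign there depends on the probe. Cdk1, the partner kinase, gave 0.18 and −0.12, −0.10 and −0.18, and −0.17 and 0.01. Ccne1 (cyclin E) had a fitted value of −0.29 in the dcKO (unadjusted p = 0.0459, adjusted p = 0.492), and its second probe gave 0.01. Ccne2 was highest of the group in the dcKO with −0.25 and 0.30, from a signal not well above background, and gave 0.13 and 0.18 in the Sox11 cKO. The group's median was −0.22 in the Sox4 cKO, −0.13 in the Sox11 cKO and −0.16 in the dcKO, with 0 of 8 genes called in each.

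Of the licensing genes, Mcm7 was lowest. Mcm7, a subunit of the replicative helicase, gave −0.61 and −0.37 on the Sox4 cKO arrays, −0.05 and −0.28 on the Sox11 cKO arrays, and −0.67 and −0.44 on the dcKO arrays. It was below wild type on all 6 arrays, and the values of the Sox4 cKO and dcKO were alike. The fitted value was −0.49 in the Sox4 cKO (SE 0.141, adjusted p = 0.785) and −0.55 in the dcKO (SE 0.141, unadjusted p = 0.00377, adjusted p = 0.181). The other helicase subunits, which act with Mcm7 in 1 ring, did not lie as low in the dcKO. Mcm2 gave −0.19 and −0.32 there, Mcm3 gave 0.15 and −0.10, and the fitted values of Mcm4, Mcm5 and Mcm6 were −0.18, 0.00 and −0.10. Mcm3 was lowest of all 45 genes in the Sox11 cKO, with −0.09 and −0.78. That value rested on replicate 2, without which it was −0.10, and did not pass (adjusted p = 0.702). In the Sox4 cKO Mcm3 gave 0.04 and 0.28.

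The loading factors lay below 0 in the dcKO. Cdc6, which recruits the helicase to origins, had a fitted value of −0.39 (unadjusted p = 0.0326, adjusted p = 0.448), from array values of −0.10 and −0.68. Cdt1, its partner in loading, was closer between arrays, with −0.42 and −0.20 (fitted −0.31, adjusted p = 0.473). Gmnn, the inhibitor of Cdt1, gave 0.03 and −0.40. The licensing group's median was −0.10 in the Sox4 cKO, −0.16 in the Sox11 cKO and −0.19 in the dcKO, and 0 of 9 genes were called in any of them. On Sox11 cKO replicate 2 the group's median was −0.33, against 0.00 on replicate 1.

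Genes of DNA synthesis and nucleotide supply and the 2 transcription factors gave no call either. Pcna, the sliding clamp of the replication fork, gave −0.36 and −0.09 in the Sox4 cKO, −0.17 and −0.09 in the Sox11 cKO, and −0.20 and −0.22 in the dcKO. It was lower than wild type on all 6 arrays, with a dcKO adjusted p of 0.658. Rrm1, the large subunit of ribonucleotide reductase, was lowest of the group in the dcKO with −0.36 and −0.14, and Tk1, thymidine kinase, was highest with −0.03 and 0.07. The group's medians were 0.00, −0.13 and −0.21 in the Sox4 cKO, Sox11 cKO and dcKO. E2f1 gave −0.11 and 0.01, 0.05 and −0.12, and −0.07 and −0.43 in that order, and Foxm1 gave 0.17 and −0.11, −0.18 and −0.28, and −0.17 and −0.04. In the Sox4 cKO the arrays of each factor lay on opposite sides of 0.

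**Figure D3:**
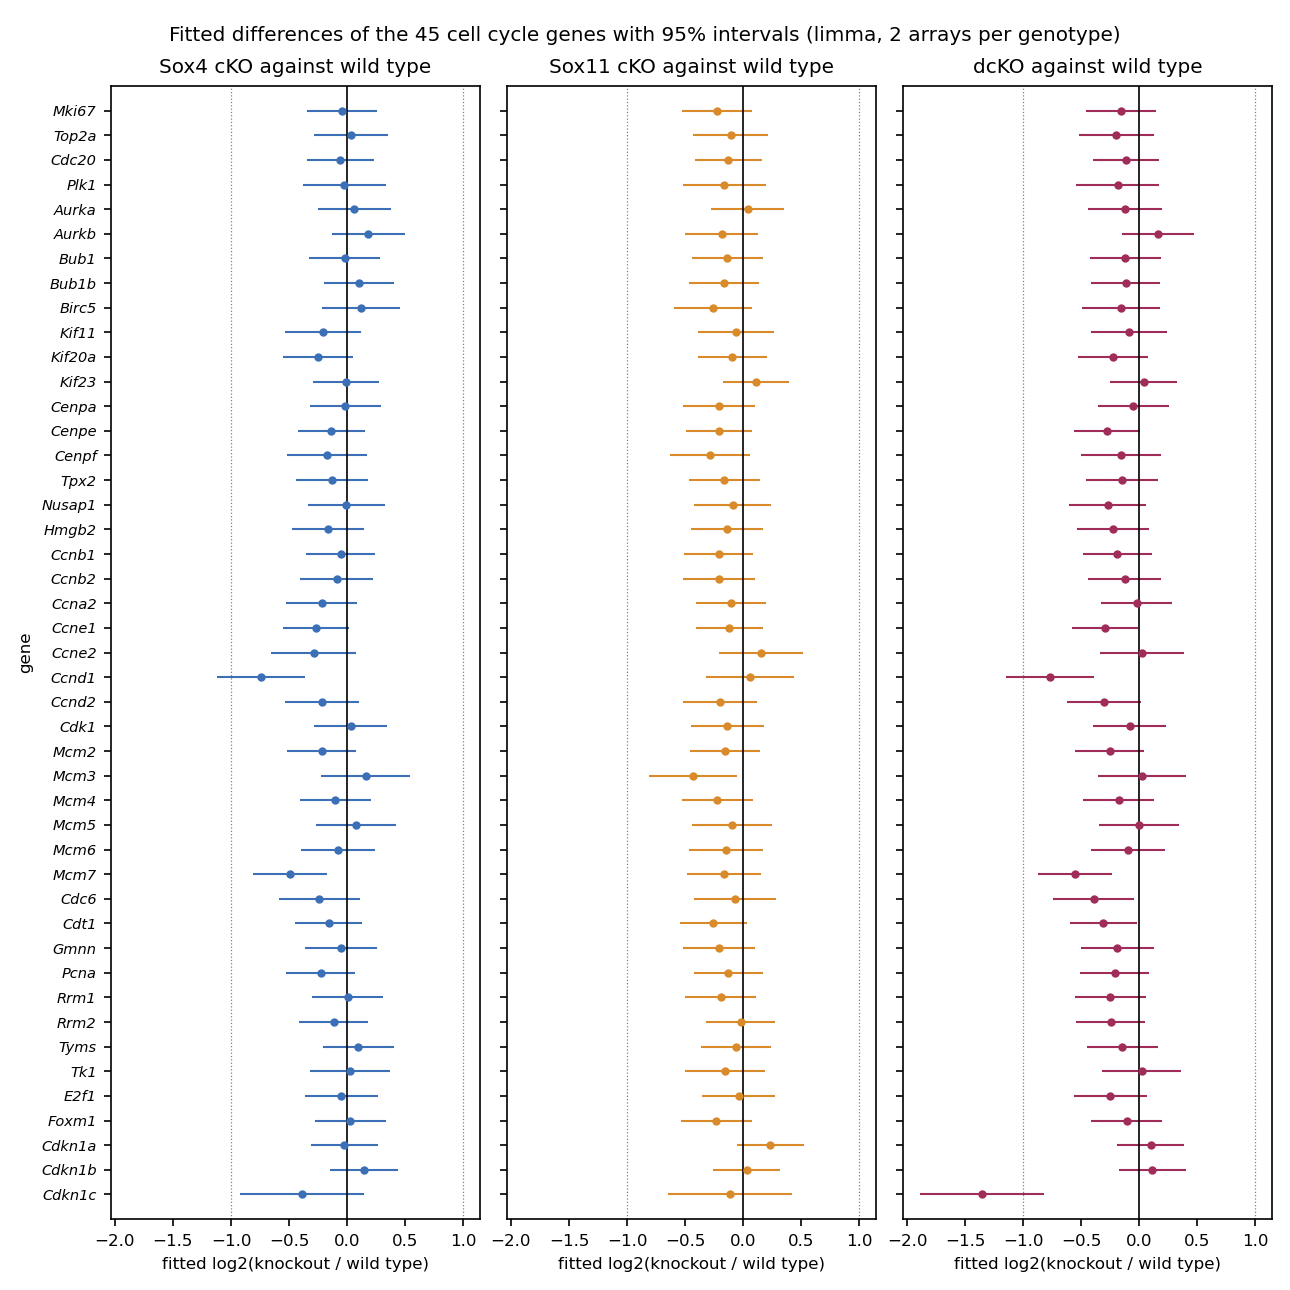
Fitted log2(knockout/wild type) of each of the 45 genes (rows) with its 95% interval (bars), with 1 panel per genotype and dotted lines at 2-fold. Nearly all intervals include 0 and stay inside the dotted lines, and the Cdkn1c interval in the dcKO (−1.89 to −0.82) is the farthest from 0.

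The one gene of the set that passed the threshold was a CDK inhibitor. Cdkn1c encodes p57, which holds cyclin-dependent kinases back and is known from cells leaving the cycle. Its normalised log2 signal was 8.47 in the knockout channel against 9.71 in the wild-type channel on dcKO replicate 1, and 8.55 against 10.01 on replicate 2. It thus fell by 1.25 and by 1.46 on the log2 scale, or 2.55-fold in the fit (−1.35, SE 0.235, 95% interval −1.89 to −0.82, adjusted p = 0.042). Channel levels were scaled between arrays by quantiles of the average intensity. On these values both dcKO knockout channels lay below all 6 wild-type channels (9.58 to 10.52). The knockout channel of Sox4 cKO replicate 1 (9.01) did so too. On the Sox4 cKO arrays Cdkn1c gave −0.998 and 0.23, and on the Sox11 cKO arrays −0.01 and −0.22. The Sox4 cKO replicates therefore differed by more than the fitted value (−0.39, adjusted p = 0.846). By limma, the dcKO call was lost without the dye term (adjusted p = 0.0563) and with dim probes left out (adjusted p = 0.0626). It was lost with all probes of a gene averaged (adjusted p = 0.0517), though Cdkn1c has 1 probe and its own value stayed the same. With the log ratio of Feature Extraction (−1.46, adjusted p = 0.441), 0 of 55681 probes were called in the dcKO. The call was also lost without dcKO replicate 2, where the fitted value was −0.99. The remaining dcKO array gave −1.25, and the dye term then came from the Sox4 cKO and Sox11 cKO arrays only.

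Dermal fibroblast markers were also low on the arrays where Cdkn1c was low. The median of this list (10 genes, 8 well above background in every channel and none without a channel) was −1.22 and −1.11 on the dcKO arrays, −1.91 and 0.61 on the Sox4 cKO arrays, and 0.73 and −0.47 on the Sox11 cKO arrays. In the dcKO 7 of the 10 genes were lower on both arrays, 2 were higher on both and 1 differed in sign. The collagen gene Col1a1 gave −1.63 and −2.22 there, and on Sox4 cKO replicate 1, where Cdkn1c was at −0.998, it gave −3.57. The summed signal of the list was between 13.13 and 13.33 (log2) in the dcKO channels and between 13.22 and 13.72 in their wild-type channels, a difference of −0.38 and −0.10 by array. Postn gave 0.72 and 0.44 on the dcKO arrays and Dcn gave 0.41 and 0.29. The other samples spanned 13.49 to 13.65 in Sox4 cKO and 13.12 to 14.51 in its wild type, and 12.93 to 13.02 in Sox11 cKO and 12.86 to 13.09 in its wild type. Periderm markers (6 genes) also had low medians in the dcKO, −1.10 and −1.04, but in the Sox11 cKO too, −1.51 and −0.58. Their medians in the Sox4 cKO were 0.66 and 0.41, with 5 genes higher and 1 lower on both arrays. The summed signal of the periderm list differed by −0.08 and −0.17 there, opposite in sign to the medians. In the dcKO 6 of 6 were lower on both arrays, and 3 had an adjusted p under 0.05 by limma, against 0.833% of all probes. Muscle markers (9 genes, 1 well above background in every channel and 1 in none) had medians of −2.05 and 0.12 on the Sox4 cKO arrays, 0.10 and 0.07 on the Sox11 cKO arrays, and −0.21 and −0.91 on the dcKO arrays. They were thus low on Sox4 cKO replicate 1 and dcKO replicate 2. The suprabasal medians were positive on both dcKO arrays, as given above. The median of basal keratinocyte markers was between −0.16 and 0.22 on all 6 arrays. Hair follicle bud markers (8 genes, 6 well above background in every channel) had medians of −0.16 and −0.38 on the dcKO arrays. These were −0.17 and −0.19 on the Sox4 cKO arrays and −0.10 and −0.07 on the Sox11 cKO arrays. In the dcKO 5 of the 8 were lower on both arrays and 1 was higher on both. A lower value with an adjusted p under 0.05 by limma was found for 1 of them. The part of other cell types in the Cdkn1c value was not tested.

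The other inhibitors showed nothing of this size. Cdkn1a (p21), the inhibitor induced by p53, gave −0.13 and 0.08 in the Sox4 cKO, 0.09 and 0.38 in the Sox11 cKO, and 0.06 and 0.13 in the dcKO. Its fitted value in the Sox11 cKO, 0.24, was the highest of the 45 genes there (adjusted p = 0.752). Cdkn1b (p27) gave 0.41 and −0.12, 0.21 and −0.15, and 0.30 and −0.07 in the same order. All 3 of its replicate 1 values were above 0 and all 3 replicate 2 values below, so its sign followed the dye and replicate number rather than the genotype.

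**Figure D4:**
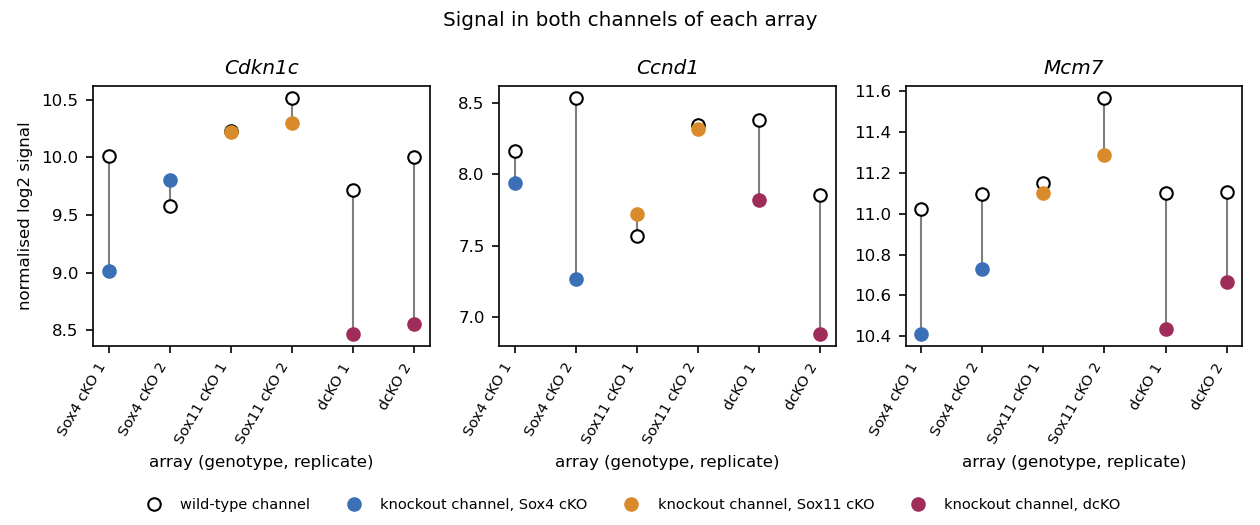
Normalised log2 signal of Cdkn1c, Ccnd1 and Mcm7 on the y axis in the wild-type channel (open circles) and the knockout channel (filled circles) of each array, joined by a line. On the dcKO arrays the knockout lay below the wild type for all 3 genes, and the replicates of the Sox4 cKO differ in opposite ways for Cdkn1c (−0.998 and 0.23) and Ccnd1 (−0.22 and −1.27).

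**Figure D5:**
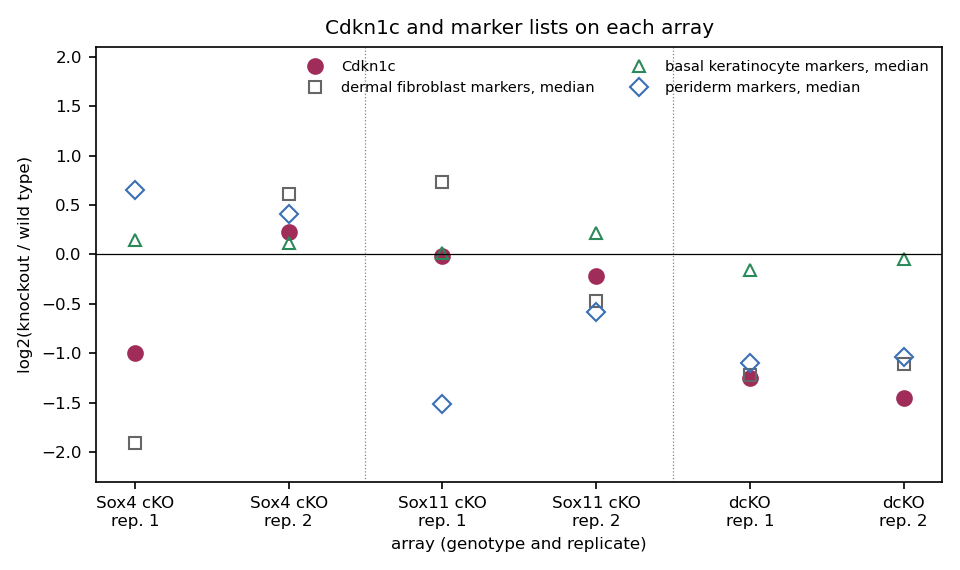
Log2(knockout/wild type) on the y axis for Cdkn1c (filled circles) and the medians of dermal fibroblast, basal keratinocyte and periderm markers (open symbols) on each array. Cdkn1c was low on the 3 arrays where the dermal median was lowest (−1.91, −1.22 and −1.11), while the basal median stayed near 0.

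Whether the genotypes differed from each other was tested as the difference of their fitted values. No gene of the set had an adjusted p under 0.05 for dcKO minus Sox4 cKO (0.147% of all probes did), dcKO minus Sox11 cKO (0.163%) or Sox4 cKO minus Sox11 cKO (0.0018%) by limma. At an unadjusted p under 0.05 there was 1 gene, 2 genes and 2 genes of 45, where 6.12%, 7.21% and 5.28% of all probes passed, so these counts were not above the background. Cdkn1c was lower in the dcKO by 0.97 than in the Sox4 cKO (95% interval −1.72 to −0.21, adjusted p = 0.735) and by 1.24 than in the Sox11 cKO (−1.99 to −0.48, adjusted p = 0.482). For Ccnd1 the dcKO differed from the Sox4 cKO by −0.02 (−0.56 to 0.51) and from the Sox11 cKO by −0.83 (−1.36 to −0.30, adjusted p = 0.515), and the Sox4 cKO differed from the Sox11 cKO by −0.80 (−1.34 to −0.27, adjusted p = 0.929). For Mcm3 the Sox4 cKO lay above the Sox11 cKO by 0.59 (0.06 to 1.13, adjusted p = 0.929). The interval of dcKO minus Sox4 cKO lay within 2-fold for 44 of 45 genes, and that of dcKO minus Sox11 cKO for 43.

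The wider cell cycle machinery was read from 147 further genes in 3 lists. None of them had an adjusted p under 0.05 in any of the 6 comparisons. In the dcKO the median was −0.07 for 57 other mitosis genes, −0.12 for 52 other replication genes and −0.13 for 38 other control genes, beside −0.01 for genes well above background. At an unadjusted p under 0.05, 5, 4 and 4 genes of these lists were lower and 1, 2 and 5 were higher in the dcKO, beside 8.44% of genes well above background lower and 7.8% higher. The lowest mitosis gene was Ncapd2, a condensin subunit, with −0.69 and −0.39 (adjusted p = 0.163), and the highest was Cdkn3, a phosphatase that acts on kinases of the cycle, with 0.32 and 0.35 (adjusted p = 0.493). Among replication genes, Chaf1b, a subunit of a histone chaperone, gave −0.38 and −0.54 (adjusted p = 0.236), and Prim2, a primase subunit, gave 0.95 and −0.08. Among control genes, Ccnd3, a further D-type cyclin, gave −0.78 and −0.33 (adjusted p = 0.145), and Lin9, of the DREAM complex, gave 0.31 and 1.02 (adjusted p = 0.15). None of these passed the threshold. In the Sox4 cKO the medians of the 3 lists were −0.02, −0.03 and −0.04, and in the Sox11 cKO −0.11, −0.13 and −0.02.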

How the data were processed

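RNA of E16 epidermis was measured on 6 two-colour arrays. The authors scanned them with Agilent Feature Extraction 11.0.1.1, and the deposited intensity values of both channels are not normalized. The deposited files also hold the log10 ratio computed by Feature Extraction. The authors' series table holds log2(knockout/wild type), made with limma (version 3.5 per the labels) by normexp background correction (offset 16) and loess. Values recomputed from the scanner files differed from it by at most 0.000318, so no ComBat adjustment was in the table.

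The table was fitted in R 4.3.3 with limma 3.58.1, with 1 coefficient per genotype and 1 dye coefficient, over all 55681 probes, with Benjamini-Hochberg adjustment. All tests were two-sided. Prior and residual degrees of freedom were 6.65 and 2, and the number of arrays limits precision. Genes were named from probe accessions through RefSeq (28341 probes) and read by their brightest probe. "Well above background" means both channels on all 6 arrays (10406 genes). The replicate number coincides with the dye orientation. Deviations of same-numbered arrays correlated at 0.259, 0.306 and 0.328. A dye effect and a pairing of the arrays by number cannot be told apart here. The dye coefficient, called the replicate block below, takes up either. Named genes were the called members, the 3 highest and 3 lowest per genotype, the ends of each role group in the dcKO, and a fixed list of markers. Members, lists and tests were chosen with earlier results of these data known. ComBat was written out in base R. The fit was run on simulated data with added changes larger than the members' medians. That run does not show what the fit detects at the size of those medians.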

Additional observations from a re-analysis of the deposited data

How the results depend on the processing

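For the dcKO, the 1 called cell cycle gene became 0 under 5 alternatives. These were the log ratio of Feature Extraction, no replicate block and dim probes left out (23561 probes kept). The others were the mean of all probes of a gene and the methods' log2 threshold applied to this fit. The count became 3 with an offset of 50, without background subtraction and with an intensity trend in the moderation (Ccnd1 and Mcm7 added each time). It became 6 with ComBat in place of the block (Cenpe, Ccne1, Ccnd1, Mcm7 and Cdt1 added). In that setting the colour effect was removed before the fit, and its degree of freedom was not counted. Leaving out 1 array at a time gave between 0 and 2 calls: 0 without dcKO replicate 2 and 2 without either Sox4 cKO array. Cdkn1c had an adjusted p of 0.441, 0.0563, 0.0626 and 0.0517 under the first 4. The cause was not tested. For the other 5 comparisons the count was 0 under every alternative. Over all probes, the dcKO had 464 calls in the main fit. That number was 1378 with an offset of 50, 1107 without background subtraction, 1161 with the intensity trend and 3628 with ComBat. It was 0 with the log ratio of Feature Extraction, 270 without the block, 571 with dim probes left out and 353 with probes averaged.

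The members' median in the Sox4 cKO was 0.078 with median centring in place of loess, which turns its sign, and −0.14 to −0.0053 with 1 array left out. In the Sox11 cKO that range was −0.29 to −0.010 and in the dcKO −0.25 to −0.094. An alternative added after seeing the data, with control and marked spots at weight 0 in loess, changed no count of member calls. The 2 arrays per genotype limit every value.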
